A study of Mus musculus with 15 samples.

Results

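Lists of decreased H2A.X domains were compared between mouse embryonic stem cells that were in Serum/LIF at harvest after an earlier period in 2i/LIF and cells labelled as Serum/LIF only. The members were chosen by label: 2 lists of the culturing condition 2i/LIF then Serum/LIF (lines 34 and 37) and the 3 Serum/LIF lists whose titles carry XS (lines 30, 31 and 32). These 5 samples are among 15 in the series, of which 10 have a list analysed here. The question named for the series is how the deposition of H2A.X differs between cultures, and this comparison asks it of cells harvested in the same medium.

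All lines came from blastocysts of the cross 129S6 X C57B6, with no allele or transgene named in the labels. Serum/LIF cells were grown on irradiated embryonic fibroblast feeders with 15% serum. The 2i/LIF medium is free of serum and held 1 µM PD0325901, which inhibits Mek, and 3 µM CHIR99021, which inhibits Gsk3. The length of the 2i/LIF period, the time back in serum, the sex of each line and the meaning of XS were not stated in the labels. Native ChIP-seq was done with 5 µg of antibody on nucleosomes freed by MNase without crosslinking. The XS lines are 30, 31 and 32 and the lines with a 2i/LIF period are 34 and 37, so line and culture history cannot be told apart. Nothing in the labels says whether samples of a group are separate cultures, so p-values reflect only how far these samples spread, and that spread may be technical. All 5 samples carry the same cell type label, ESC, which lists of chromatin domains cannot be used to check.

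H2A.X is a variant of histone H2A that is built into nucleosomes throughout the genome and is phosphorylated around DNA double-strand breaks. The antibody is labelled as against H2A.X, with no mention of the phosphorylated form. Serum/LIF and 2i/LIF both sustain self-renewal, 2i/LIF by blocking Mek and Gsk3 signalling, and cells can be moved from one medium to the other. A decreased domain is, by the name the authors gave the list, a region with less H2A.X than in a control, which is not identified in the labels. Used here were the intervals, on a grid of 1300 bp bins, and a score, on the 19 autosomes of build mm9 over a span of 2412.2 Mb. The lists hold no read counts, so the depth behind them is unknown and no interval from counting could be computed. Genes were not assigned and no sequence is shown, because the gene and sequence tables used were of another build.

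The groups did not separate by the size of their lists. After 2i/LIF, line 34 had 1868 domains over 1022.7 Mb and line 37 had 2937 domains over 1001 Mb. The XS lists of lines 30, 31 and 32 had 2534, 2213 and 4392 domains over 877, 1754.9 and 736 Mb. The lists after 2i/LIF thus lay close together in length, at 1012 ± 15.1 Mb (SD, n = 2), between the widest XS list and the other two XS lists, which averaged 1122 ± 552 Mb (SD, n = 3) with it. The difference was -110.5 Mb (exact permutation p = 1, two-sided) and, in number, -644 domains (exact permutation p = 0.8). With 2 lists against 3 there are 10 splits and the smallest two-sided p is 0.2, so no single value could pass 0.05. The direction of both differences rested on 1 list each: the length difference was 206 Mb without XS line 31 and the number difference 29 domains without XS line 32.

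Domain length differed more within the groups than between them. The median domain was 289 kb in line 34 and 175.5 kb in line 37 after 2i/LIF, compared with 203, 394 and 79.3 kb in XS lines 30, 31 and 32. The difference of the group means, 7.04 kb, was far inside this spread (exact permutation p = 1, two-sided), and it turned to -49.8, -4.23 and -66.0 kb without line 34, XS line 30 and XS line 32. Domains over 1 Mb made up 51.2% and 34.8% of the covered length after 2i/LIF and 29.0%, 67.5% and 22.3% in the XS lists (exact permutation p = 1, two-sided), a difference of 3.43 points that turned without each of the same 3 lists (-4.78, -1.89 and -5.22 points). XS line 32 stood at the short end, with 59.1% of its domains under 100 kb, compared with 14.6% to 29.96% in the other 4 lists. The gap between neighbouring domains had a median of 175.5 and 109 kb after 2i/LIF and 261, 175.5 and 127 kb in the XS lists, so these ranges overlapped as well.

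The lists of lines 34 and 37 were cut differently over nearly the same ground. Of the 1868 domains of line 34, 545 (29.2%) were touched by 2 or more domains of line 37, whereas 110 (3.75%) of the 2937 domains of line 37 were touched by 2 or more of line 34. Most of the others met 1 partner, 1157 in line 34 and 2295 in line 37. Another 166 domains of line 34 and 532 of line 37 met none. Identical ends were found in 65 domains, so the borders mostly differed although 88.4% of the length of line 34 and 90.3% of that of line 37 lay in the other list.

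The score of the domains separated the groups. The authors' score was at most the bin count of its domain and was divided by that count, which gives a score per bin between 0 and 1. Its median over domains was 0.862 and 0.874 in lines 34 and 37 after 2i/LIF and 0.691, 0.639 and 0.790 in XS lines 30, 31 and 32. Both values after 2i/LIF were above all 3 XS values, and the difference was 0.162 (two-sided exact permutation p = 0.2, the smallest that can be reached). Leaving out any 1 list, which could not turn its sign, gave 0.128 to 0.204. Scores above 0.8 were held by 72.4% and 74.6% of the domains after 2i/LIF and by 15.4%, 2.76% and 45.6% of the XS domains. For reference, the lists of cells in 2i/LIF had medians of 0.870, 0.721 and 0.793 in lines 34, 35 and 37. That of line 35 lay within the range of the XS lists.

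**Figure D1:**
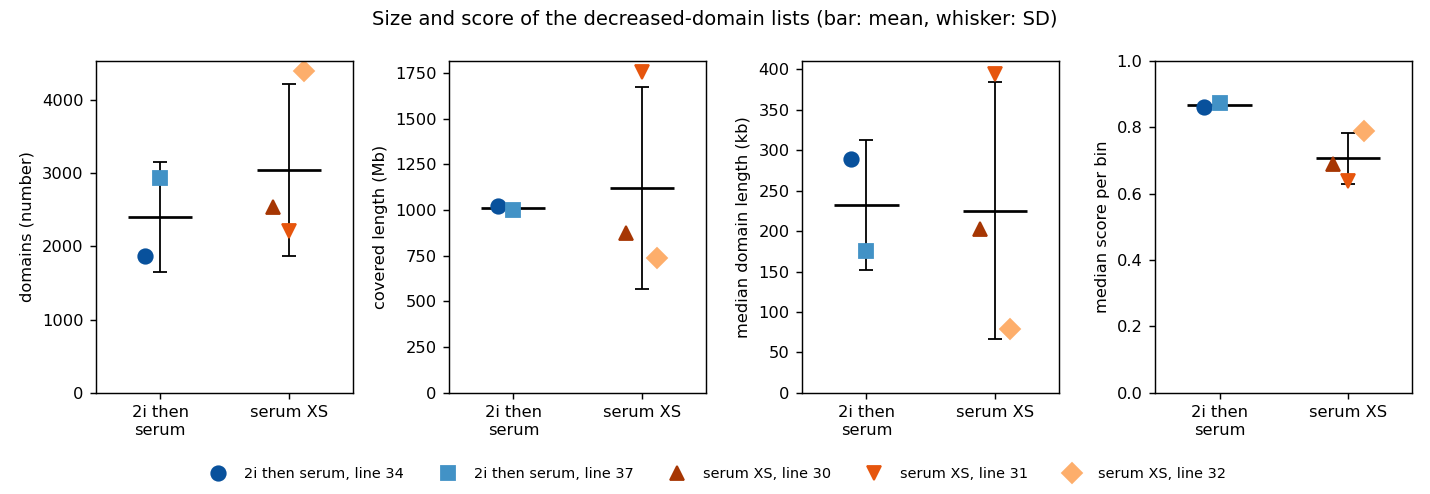
Number of domains, covered length (Mb), median domain length (kb) and median score per bin of each list, with 1 marker per list, the group mean as a bar and the SD as a whisker. The first 3 measures overlap between the groups, whereas the scores of 0.862 and 0.874 after 2i/LIF lie above the XS scores, the highest of which is 0.790.

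The higher score was present on every autosome and in the domains over the bins that all 5 lists covered. The median score per bin was above that of all XS lists in both lists after 2i/LIF on 19 of 19 chromosomes, although few domains stand behind some of these values (1 domain of line 37 on chromosome 6 and 3 of XS line 32 on chromosome 13). The score is 1 value per domain, so each bin carries the score of its whole domain, which can reach beyond the bins compared. In the 209 Mb that all 5 lists covered, the mean score per bin was 0.927 in line 34 and 0.935 in line 37. Over these same bins it was 0.766, 0.726 and 0.806 in XS lines 30, 31 and 32. The groups did not overlap here either, with means of 0.931 ± 0.00605 (SD, n = 2) and 0.766 ± 0.0398 (SD, n = 3) and a difference of 0.165 (exact permutation p = 0.2, two-sided). The meaning of the score is not defined in the sources used here, and whether it can be compared between lists was not tested.

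Longer domains had higher scores after 2i/LIF, which was not seen in every XS list. In domains over 1 Mb the median score per bin was 0.913 and 0.936 after 2i/LIF and 0.705, 0.658 and 0.821 in the XS lists. In domains under 100 kb it was 0.805 and 0.836 after 2i/LIF, and 0.741, 0.651 and 0.805 in the XS lists, so that line 34 and XS line 32 nearly met. Across the domains of a list, Spearman's rho between length and score per bin was 0.400 and 0.388 after 2i/LIF (n = 1868 and 2937 domains) and -0.188, 0.0731 and -0.219 in XS lines 30, 31 and 32. These correlations describe the domains of 1 list each, which share a library.

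The lists after 2i/LIF shared more with each other than with any XS list. The overlap index, which is the length in both lists over the length in either, was 0.807 between lines 34 and 37. It was 0.396, 0.386 and 0.157 between line 34 and XS lines 30, 31 and 32, and 0.402, 0.392 and 0.160 between line 37 and the same lists. Both lines gave nearly the same 3 values, and XS line 32 was the least shared in both. Among the XS lists the index was 0.463 between lines 30 and 31, 0.423 between lines 30 and 32, and 0.411 between lines 31 and 32. These values were close to those of XS lines 30 and 31 with the lists after 2i/LIF, and the pair of lines 34 and 37 stood well above them. The mean over the 4 pairs within a group was 0.526 and over the 6 pairs between groups 0.315, a difference of 0.211 (one-sided exact permutation p = 0.1, the smallest that 10 relabellings allow). It was 0.0931 with the higher-scoring 50% of each list (exact permutation p = 0.3, one-sided), and 0.114 and 0.119 without line 34 and without line 37. Without XS line 30 and without XS line 31 it was 0.336 in each case. XS line 31 held 75.6% and 77.5% of the lists of lines 34 and 37, XS line 30 held 52.7% and 53.7%, and XS line 32 held 23.3% and 24.0%. For comparison, the extent of XS lines 30, 31 and 32 was 36.3%, 72.8% and 30.5% of the 2412.2 Mb analysed. XS line 30 thus held more of both lists than its extent, XS line 31 slightly more, and XS line 32 less. In the other direction, lines 34 and 37 held 61.4% of XS line 30 each and 44.1% and 44.2% of XS line 31. Of XS line 32 they held 32.4% and 32.6%. Their own extent was 42.4% and 41.5%. Their share was thus above it for XS line 30, slightly above for XS line 31 and below for XS line 32.

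By chromosome, coverage after 2i/LIF was near 0 on chromosomes 6 and 8 and overlapped the XS lists on the other 17. On chromosome 6, lines 34 and 37 had 4.37% and 0.0355% of the span covered, by 27 domains and 1 domain, compared with 36.5%, 73.3% and 27.2% in XS lines 30, 31 and 32. On chromosome 8 the values were 1.16% and 0.280% after 2i/LIF, from 9 and 5 domains, and 25.1%, 70.1% and 35.5% in the XS lists. Every XS list lay above both lists after 2i/LIF on these 2 of 19 chromosomes (10.5%), and on none did the lists after 2i/LIF lie above all XS lists. The differences were -43.5 and -42.8 percentage points (limma, SE 17.7, adjusted p = 0.176 for both over 19 chromosomes). No chromosome passed 0.05 after adjustment, and 2 did without it. The limma fit pools the spread over chromosomes, which share the overall extent of each list and so are not independent.

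This count changed without XS line 31. Limma then called chromosomes 6 and 8 lower and 10 others higher after 2i/LIF, and 16 chromosomes were higher without overlap. With each list centred on its own coverage of the whole span, limma called 3 chromosomes higher (9, 11 and 13) and 2 lower (6 and 8), and on the arcsine square root scale it called 2 lower. With the higher-scoring 50% of each list the differences on chromosomes 6 and 8 were -21.6 and -25.7 points (limma, adjusted p = 0.677 for both), and with weighting by score that on chromosome 6 was -28.9 (limma, adjusted p = 0.0814).

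**Figure D2:**
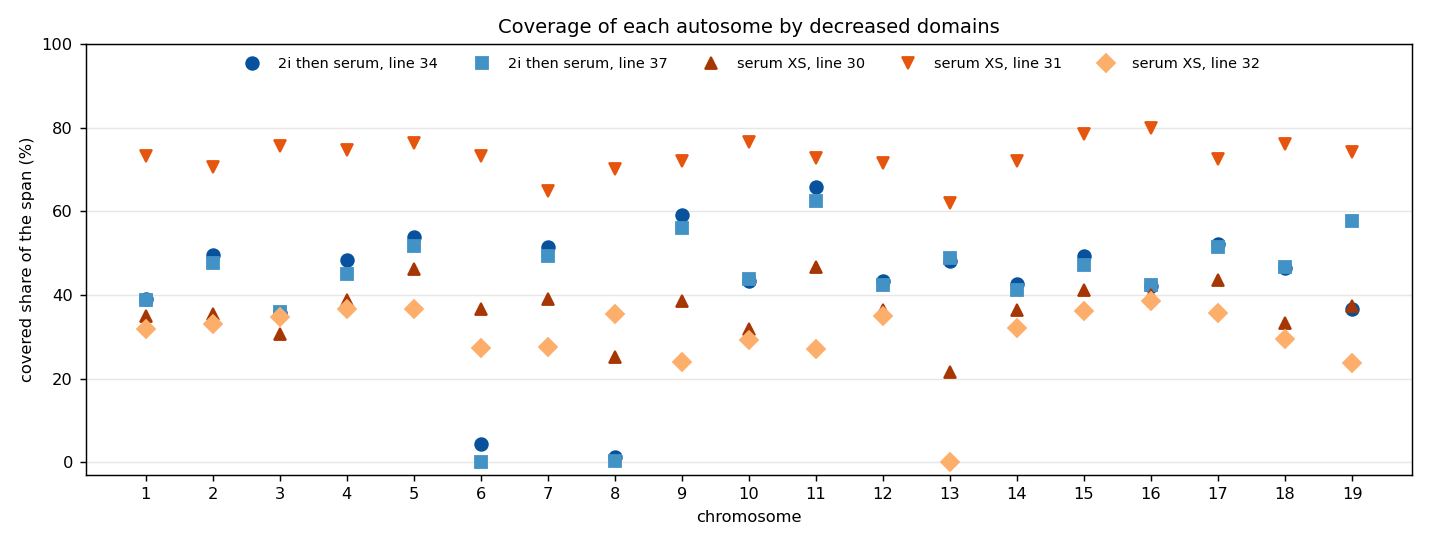
Share of each autosome covered by decreased domains (%), with 1 marker per list. Markers of lines 34 and 37 lie near 0 on chromosomes 6 and 8, where the XS lists lie between 25.1% and 73.3%, and XS line 32 lies near 0 on chromosome 13.

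The largest differences towards higher coverage after 2i/LIF were on chromosomes 13, 11 and 9, and none was beyond the spread of the XS lists. Chromosome 13 was covered over 48.0% and 48.9% after 2i/LIF and over 21.6%, 61.9% and 0.0821% in XS lines 30, 31 and 32. Its difference of 20.6 points (limma, SE 17.7, adjusted p = 0.992) was 6.72 points without XS line 32, whose 3 domains there are the fewest of any XS chromosome. Chromosome 11 was covered over 65.9% and 62.4% after 2i/LIF and over 46.7%, 72.7% and 27.2% in the XS lists, and chromosome 9 over 59.1% and 56.0% against 38.6%, 71.9% and 24.0%. In both cases the lists after 2i/LIF lay between XS line 31 and the other XS lists. Without XS line 31 limma called chromosomes 13, 11 and 9 higher, by 37.6, 27.2 and 26.2 points (adjusted p = 0.0188, 0.0337 and 0.0188). Among the chromosomes lower after 2i/LIF, chromosome 3 followed chromosomes 6 and 8 with a difference of -11.2 points (limma, adjusted p = 0.992), which turned to 3.14 without XS line 31.

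By chromosome the 2 lists after 2i/LIF differed little from each other in coverage, also on chromosomes 6, 8 and 13. They covered 47.4% and 46.7% of the other 16 chromosomes together, and XS lines 30, 31 and 32 covered 37.9%, 73.5% and 32.2%. Chromosome 19 was the exception, with 36.5% in line 34 and 57.7% in line 37.

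At a finer scale coverage was compared in windows. It was computed for 2393 windows of 1 Mb in which at least 1 of the 5 lists had a domain. In 667 windows (27.9%) both lists after 2i/LIF were above all 3 XS lists, and in 588 windows (24.6%) both were below all 3. The median gap between the nearest lists was 14.7 percentage points in the former and 34.96 in the latter. With a gap of at least 20 percentage points between the nearest lists, the counts were 246 (10.3%) and 396 (16.5%). Limma called 35 windows higher (1.46%) and 183 lower (7.65%) after 2i/LIF at an adjusted p under 0.05.

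Those counts changed when single lists were left out and when the extent or score of the lists was treated differently. Without line 34 or without line 37 limma called 0 windows, with 275 and 300 at an unadjusted p under 0.05, where the lone list is assumed to vary like the others. Without XS line 31 it called 452 higher and 249 lower, without XS line 30 it called 28 and 352, and without XS line 32 it called 20 and 134. Centring each list on its own coverage gave 519 higher (21.7%) and 516 lower (21.6%), so that the excess of lower windows was not kept. With only the higher-scoring 50% of the domains of each list it turned, at 100 higher and 4 lower, as it did with weighting by score, at 312 and 242. In 2 Mb windows limma called 0 higher and 69 lower. Windows without overlap were 1248 higher and 588 lower without XS line 31, and leaving out a list can only keep or raise such counts. Neighbouring windows share domains and are not independent.

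The agreement between the lists after 2i/LIF was close in single windows. Their coverage differed by a median of 3.12 percentage points, and by 50 points or more in 0.418% of windows. The same median was 34.1 points between XS lines 30 and 31, 19.5 between XS lines 30 and 32, and 42.3 between XS lines 31 and 32. Limma takes 1 spread for both groups, although these differ. Across the 2393 windows, Pearson's r was 0.961 between lines 34 and 37, and 0.480 to 0.611 among the XS lists. Between the groups, r was 0.369 and 0.371 with XS line 30, -0.0270 and -0.00139 with XS line 31, and -0.267 and -0.257 with XS line 32. These correlations are across windows, which share domains within a list, and describe these lists only.

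**Figure D3:**
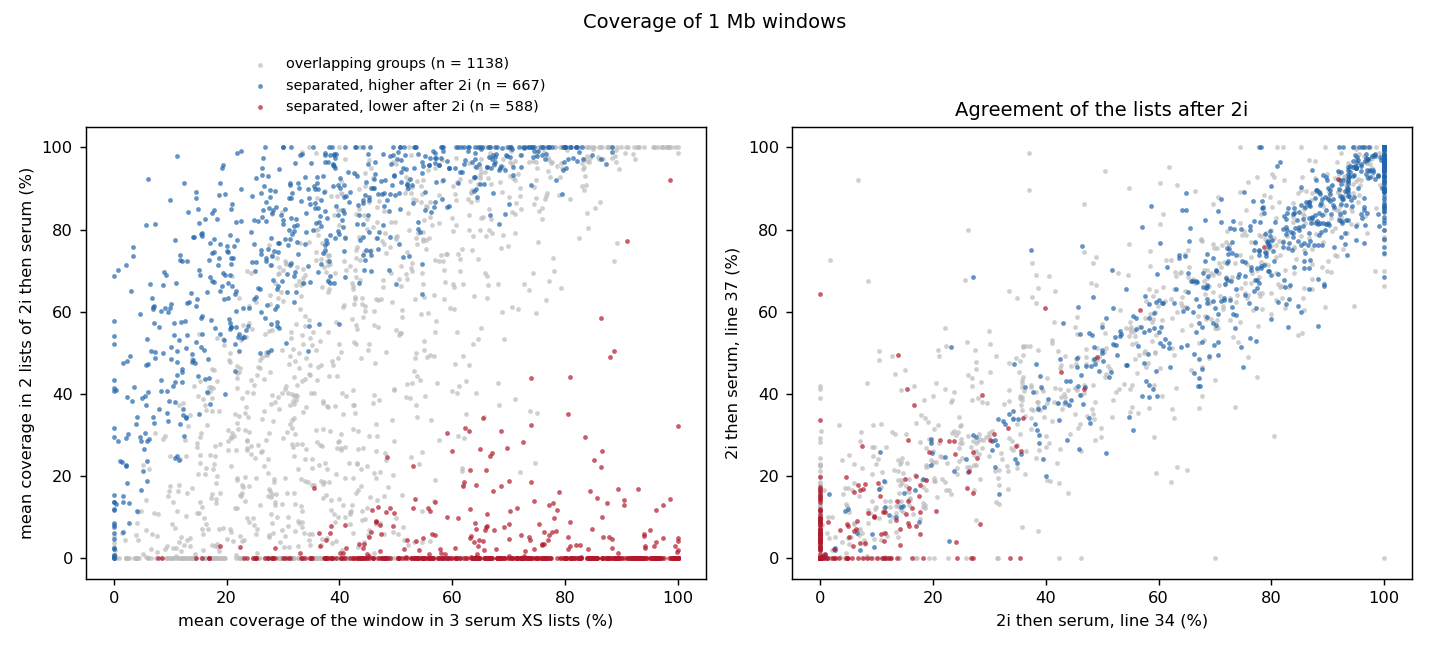
Left, mean coverage (%) of each of 2393 windows of 1 Mb in the 2 lists after 2i/LIF against the mean in the 3 XS lists; right, line 37 against line 34 after 2i/LIF. The 588 windows lower after 2i/LIF lie mostly at 0 on the vertical axis, and the 667 higher ones are spread over most of it.

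The windows lower after 2i/LIF were mostly empty in those lists. Of the 588, 413 held no domain in either list after 2i/LIF, and the median coverage was 0 in both, compared with 50.2%, 100% and 76.5% in XS lines 30, 31 and 32. XS line 31 covered 65.0% of these windows completely. The 183 windows that limma called lower had medians of 82.4%, 100% and 95.7% in the XS lists. The windows higher after 2i/LIF were more often partly covered in the XS lists. The 667 had medians of 83.9% and 79.8% after 2i/LIF and 34.5%, 54.1% and 5.72% in the XS lists. The 35 called by limma had medians of 76.8% and 74.8% after 2i/LIF, and 8.19%, 11.96% and 0 in the XS lists. Since these windows were chosen by the same values, the medians describe them and test nothing.

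Lower windows lay in longer blocks than higher ones. Chromosomes 6 and 8 held 161 of the lower windows and no higher one, and runs were not counted without them. The 588 windows formed 219 runs of neighbouring windows, of which 84 were single windows and the longest had 16 windows, on chromosome 6 from 74 to 90 Mb. The 667 higher windows formed 336 runs, 172 of them single, with a longest run of 10 windows on chromosome 12 from 80 to 90 Mb. Among limma's calls, all 35 higher windows stood alone, whereas the 183 lower ones formed 98 runs, the longest with 7 windows on chromosome 14 from 107 to 114 Mb.

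Every chromosome but 3 held windows of both directions. Chromosomes 6 and 8 held 161 of the lower windows (27.4%, from 11.3% of the windows tested) and no higher one, and chromosome 13 held 49 higher windows and no lower one. Without these 3 chromosomes 618 windows were higher and 427 lower. By share of their own windows, chromosome 11 had the most higher windows (46.2%), followed by chromosome 13 (41.9%) and chromosome 9 (39.7%). Outside chromosomes 6 and 8, chromosomes 16, 3, 1 and 12 had the most lower windows, at 31.6%, 28.7%, 26.9% and 26.5%. Limma's lower calls were densest on chromosomes 14 (16.1%) and 16 (15.8%), with 22 on chromosomes 6 and 8 together and none on chromosomes 13 and 19.

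The 5 windows with the largest gap towards higher coverage after 2i/LIF, at most 1 a chromosome, were covered by at most 23.0% in any XS list. On chr14:122000001-123000000 (mm9), lines 34 and 37 covered 100% and 84.4%, and XS lines 30, 31 and 32 covered 6.63%, 5.07% and 6.50% (limma, difference 86.1 points, SE 9.03, adjusted p = 0.0106). On chr10:6000001-7000000 the values were 100% and 96.0% against 10.4%, 23.0% and 0 (limma, 86.8 points, adjusted p = 0.0137). All 3 XS lists thus left most of either window free, while both lists after 2i/LIF covered most of it. On chr13:63000001-64000000 they were 82.8% and 79.8% against 8.19%, 13.9% and 0. On chr3:68000001-69000000 lines 34 and 37 covered 72.8% and 67.5%, and XS line 31 alone had any domain, over 2.34%. On chr2:181000001-182000000 they covered 74.8% and 72.3%, and again only XS line 31 had any, over 10.1%. These last 3 windows also passed (limma, adjusted p = 0.0136, 0.0119 and 0.0137).

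At the other end, 20 windows on 8 chromosomes were covered completely by all 3 XS lists and not at all by either list after 2i/LIF. The first of them on each of chromosomes 1 to 5 were taken as examples. They lay on chr1:150000001-151000000, chr2:42000001-43000000, chr3:140000001-141000000, chr4:67000001-68000000 and chr5:55000001-56000000. Each had a difference of -100 points (limma, SE 7.65, adjusted p = 0.00742), where the SE comes from the spread in other windows because no list of a group differed from another. All 10 named windows lost their call without line 34 or without line 37, and the window on chromosome 13 also lost it on the arcsine square root scale (limma, adjusted p = 0.0527).

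**Figure D4:**
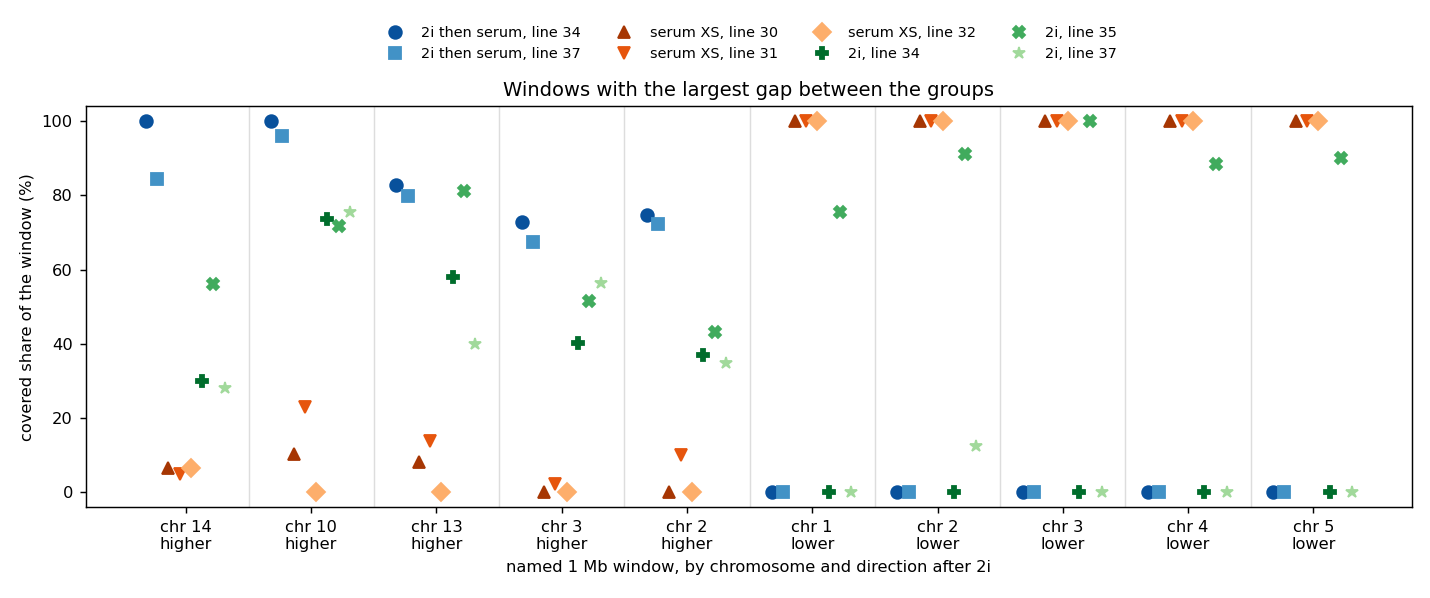
Coverage (%) of the 10 named 1 Mb windows in the 2 lists after 2i/LIF, the 3 XS lists and, for reference, the 3 lists of cells in 2i/LIF. In the windows lower after 2i/LIF all XS markers lie at 100% and both markers after 2i/LIF at 0. There 2i/LIF line 35, which covered 78.2% of the whole span, lies at 75.7% to 100%.

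The lists of cells still in 2i/LIF had no part in choosing the windows, but the XS lists they are compared with did. Lower windows were picked where all XS lists lay above both lists after 2i/LIF, and higher windows where all lay below. A larger share below or above the XS lists than in all tested windows is thus partly built in and tests nothing. In the lower windows the 2i/LIF lists of lines 34 and 37 had lower median coverages than the XS lists. That of line 35 did not lie below all of them. In the higher windows all 3 2i/LIF lists had median coverages above the XS medians. That of line 35 was nonetheless below its own median over all tested windows. In the 588 lower windows, 2i/LIF lines 34 and 37 had median coverages of 0 and 8.06%, and line 35 had 88.7%. Line 34 was below all 3 XS lists in 496 of them (84.4%, against 26.4% of all tested windows), line 37 in 442 (75.2%, against 20.3%) and line 35 in 79 (13.4%, against 3.51%). The 2i/LIF lists were not empty on chromosomes 6 and 8, which hold 161 of the lower windows. On chromosome 6, 2i/LIF lines 34, 35 and 37 covered 31.5%, 77.1% and 27.4%, compared with 4.37% and 0.0355% in lines 34 and 37 after 2i/LIF. On chromosome 8 they covered 35.6%, 75.2% and 30.8%, compared with 1.16% and 0.280%. Over all tested windows the 2i/LIF lists of lines 34, 35 and 37 had median coverages of 26.8%, 83.4% and 45.3%. In the 667 higher windows the medians were 58.6%, 74.9% and 61.8% in lines 34, 35 and 37. There line 34 exceeded all XS lists in 374 windows (56.1%, against 20.1% of all tested), line 37 in 396 (59.4%, against 24.5%) and line 35 in 533 (79.9%, against 49.6%). Lines 34 and 37 are the lines with a list after 2i/LIF, and line 35 has none, so a shared line and a shared culture history cannot be told apart here. Serum/LIF lists titled S of lines 35 and 37 covered 0.0382% and 0.381% of the span, with median coverages of 0 in both kinds of window. The cause of their small extent was not tested.

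In bins, 158.5 Mb (6.57% of the span) lay in both lists after 2i/LIF and in no XS list, in 1908 stretches with a median of 57.2 kb. A larger length, 252 Mb (10.4%), lay in all 3 XS lists and in neither list after 2i/LIF, in 1153 stretches with a median of 112 kb. All 5 lists held 209 Mb (8.66%) and none of them held 366 Mb (15.2%). Of the 904 Mb common to both lists after 2i/LIF, 746 Mb was also in at least 1 XS list. Of the whole span of 2412.2 Mb, at least 1 XS list held 1807 Mb (74.9%). The first length was 372 Mb without XS line 31 and the second 476 Mb without XS line 30, and with the higher-scoring 50% of domains the second fell to 23.2 Mb. The length in all lists was 483 Mb without XS line 32 and 97.0 Mb with the higher-scoring 50% of domains.

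The longest unbroken stretches, at most 1 a chromosome, differed in length between these classes. In both lists after 2i/LIF and no XS list they were chr9:122721301-123432400 (711 kb, mm9), chr13:20088901-20724600 (636 kb), chr10:6104801-6732700 (628 kb), chr3:68170701-68773900 (603 kb) and chr18:24629801-25186200 (556 kb). In all 3 XS lists and neither list after 2i/LIF they were 1.60 to 4.29 Mb long. The longest was on chr14:107827201-112115900 (4.29 Mb), followed by chr16:70395001-72438600 (2.04 Mb), chr4:66591201-68478800 (1.89 Mb), chr2:98624501-100291100 (1.67 Mb) and chr1:149949801-151551400 (1.60 Mb). In the 4.29 Mb stretch the score per bin of the whole domains there was 0.647, 0.758 and 0.869 in XS lines 30, 31 and 32. The 2i/LIF lists of lines 34, 35 and 37 covered 0, 89.3% and 20.04% of this stretch. Over the whole span they covered 34.6%, 78.2% and 44.8%.

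The longest stretches in all 5 lists were compared by score, where each stretch carries the scores of whole domains that can reach beyond it. The first lay on chr4:152534201-154042200 (1.51 Mb), where the mean score per bin was 0.968 and 0.985 after 2i/LIF and 0.886, 0.824 and 0.923 in the XS lists. The next was on chr2:178206601-179650900 (1.44 Mb), with 0.971 and 0.968 after 2i/LIF and 0.788, 0.751 and 0.8005 in the XS lists. On chr11:118183001-119293200 (1.11 Mb), chr10:79120601-80193100 (1.07 Mb) and chr5:35551101-36613200 (1.06 Mb), the scores after 2i/LIF were 0.967 to 0.993 and the XS scores 0.789 to 0.934. In all 5 stretches both scores after 2i/LIF were above the 3 XS scores. The 2i/LIF lists covered at least 79.56% of each.

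The longest single domain of each list was also looked up in the other lists. In line 34 it was on chr5:115447801-125097700 (9.65 Mb, mm9), of which line 37 covered 97.5% and XS lines 30, 31 and 32 covered 85.6%, 86.3% and 49.8%. In line 37 it was on chr2:26690301-34040500 (7.35 Mb), with 99.8% in line 34 and 88.6%, 84.0% and 52.7% in the XS lists. These longest domains after 2i/LIF were thus largely covered in XS lines 30 and 31 too. All 3 XS lists covered more of them than of the whole span (36.3%, 72.8% and 30.5% in lines 30, 31 and 32). The longest XS domains were not covered to a like degree after 2i/LIF. That of XS line 30, on chr14:107827201-112671000 (4.84 Mb), had 0 coverage in both lists after 2i/LIF and 100% and 99.8% in XS lines 31 and 32. That of XS line 31, on chr16:65295101-84805500 (19.5 Mb), had 8.41% and 9.19% coverage after 2i/LIF. That of XS line 32, on chr16:67835301-72568600 (4.73 Mb), lay inside it and had 0 and 2.09%.

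Coverage was higher at the end of the chromosomes than at their start in all 5 lists, and windows lower after 2i/LIF were most frequent in the middle. Mouse autosomes have their centromere at the start. Each chromosome's span was cut into 5 equal parts. From the first part to the last, mean window coverage went from 35.5% to 58.3% in line 34 and from 34.6% to 57.0% in line 37. It went from 21.4% to 52.9%, 65.0% to 78.1% and 18.4% to 37.9% in XS lines 30, 31 and 32. Lower windows made up 18.5% of the first part, 31.2% of the middle one and 19.1% of the last. Higher windows made up 29.7%, 24.7% and 30.4%. These shares are over windows that are not independent, and no test was made of their difference.

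**Figure D5:**
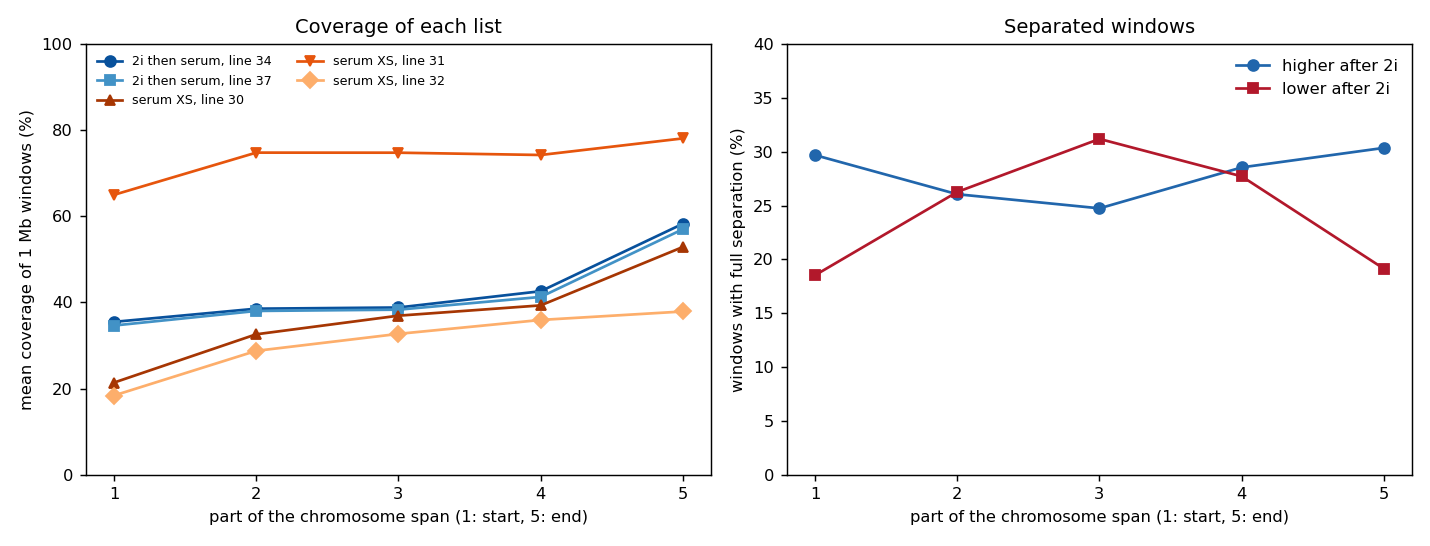
Left, mean coverage (%) of 1 Mb windows in each of 5 equal parts of the chromosome span, with 1 line per list; right, the share of windows (%) in which the groups do not overlap. Windows lower after 2i/LIF reach 31.2% in the middle part, and coverage is highest in the last part in all 5 lists.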

How the data were processed

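The submitters' processing notes name Bowtie2 2.0.6 and mm9. Which program called the domains, with which settings and control, and whether samples were pooled is not given in the sources used here. The authors deposited 1 list of decreased domains per sample, with a start and an end in bp and a score; a further column of undefined meaning was not used. The state written in each list reads as enriched; the direction was taken from the list's name. Lists were set on 1300 bp bins over each chromosome's span, from the earliest to the latest bin in any of the 10 lists. Bins were assigned to 1 Mb windows by their start, and windows with at least 50% of their bins in the span and a domain in at least 1 of the 5 lists were tested.

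Single values per list were compared by exact permutation tests, and coverage of chromosomes and windows with limma 3.58.1 (R 4.3.3) with Benjamini-Hochberg adjustment. The limma step was tested on simulated independent windows with the same spread in both groups. The windows here are not independent and the groups differ in spread, so that test does not vouch for the calls. Chromosomes (3 each way by difference), windows (5 each way by gap, ties by difference and then chromosome order), stretches (5 a class) and the longest domains were named by rule. The members, lists and rules were chosen with earlier results of these data known. Python 3.11.15, numpy 2.4.6, pandas 2.3.3 and matplotlib 3.10.9 were used. The 5 samples without a list were not analysed here.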

Additional observations from a re-analysis of the deposited data

How the results depend on the processing

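No paired analysis was possible because the groups compared share no line number. The median score per bin and the overlap index kept their direction under every alternative run for them. Leaving out each list gave 0.128 to 0.204 for the score and 0.114 to 0.336 for the index difference. For the score an omission could not turn the direction, because both lists after 2i/LIF lay above all XS lists. The index difference was 0.0931 with the higher-scoring 50%. Covered length turned with the higher-scoring 50% of each list (96.4 Mb). Leaving out single lists gave -304 to 206 Mb for length, -1178 to 29 for number, -66.0 to 91.3 kb for median length and -5.22 to 17.4 points for the share in domains over 1 Mb. Within these ranges, length turned without XS line 31 (206 Mb) and number without XS line 32 (29). Median length turned without line 34, XS line 30 and XS line 32 (-49.8, -4.23 and -66.0 kb), as did the share over 1 Mb (-4.78, -1.89 and -5.22 points).

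Counts of chromosomes called by limma were 0 higher and 2 lower on the arcsine scale and 3 and 2 after centring; without overlap they were 8 and 4 after centring, 1 higher with the higher-scoring 50%, 4 higher with weighting by score, and 0 lower without chromosomes 6, 8 and 13. Leaving out single lists gave 0 to 10 called higher, 0 to 2 called lower and 0 to 16 higher without overlap; the difference on chromosome 3 ran from -19.3 to 3.14 points and turned without XS line 31.

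Counts of windows called by limma were 0 higher and 69 lower at 2 Mb, 246 and 459 at 500 kb, 15 higher on the arcsine scale, 519 and 516 after centring, 100 and 4 with the higher-scoring 50%, and 312 higher with weighting. Windows without overlap were 327 higher and 334 lower at 2 Mb, 1172 and 1005 at 500 kb, 246 higher with a gap of 20 points, 143 lower with the higher-scoring 50%, and 1069 higher with weighting. Changing the window size changes the number tested (1195 and 4712). Leaving out single lists gave 0 to 452 called higher, 0 to 352 called lower, 667 to 1248 higher and 588 to 805 lower without overlap. Leaving out a list can only keep or raise the counts without overlap, of windows as of chromosomes. The cause of the other changes was not tested. A minimum length of 10 kb, joining domains closer than 10 kb, and testing windows with no domain left every count within 1.5 times its value. With the higher-scoring 50%, 7 of the 10 named windows lost their call, and 1 did on the arcsine scale.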
